A study of Rattus norvegicus with 11 samples.

Results

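The genes described here code for the L-type calcium channel of the heart, for calmodulin, and for the calmodulin-dependent enzymes CaMKII and calcineurin: Cacna1c, Cacnb2, Cacna2d1, Calm2, Calm3, Camk2d, Ppp3ca, Ppp3cb and Ppp3r1. They were found through the platform's gene symbols, which gave 17 probe sets of the 8799 on the array, for 8 of the 9 genes. In all, 4736 genes had a probe set with a single symbol. No probe set carried the symbol Calm3 here, so Calm3 was not analysed. Total RNA of heart ventricle was measured on Affymetrix rat arrays, in Fischer-344 rats, a common inbred strain of ageing studies. An old group of 6 arrays came from rats of 22 months and a young group of 5 arrays from rats of 4 months, with no treatment or genetic change named for either group. The labels do not tie arrays to animals, so the p-values reflect spread between arrays that may be technical.

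In heart muscle, each action potential opens L-type calcium channels, and the calcium that enters triggers a larger release from the sarcoplasmic reticulum that starts contraction. Calmodulin binds the calcium and activates both CaMKII, a kinase that phosphorylates channels and calcium-handling proteins, and calcineurin, a phosphatase that sends NFAT transcription factors to the nucleus. Both enzymes are widely studied in hypertrophy and arrhythmia.

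No transcript of the channel, calmodulin, CaMKII or calcineurin genes passed the test between old and young ventricle. Of the 17 probe sets, 14 were bright enough to test, and 0 of them passed a limma adjusted p of 0.05. Over all 5244 probe sets tested, 0 passed as well, which is 0%. At an unadjusted p under 0.05 there were again 0 of the 14, beside 7.51% of all tested probe sets. The old and young arrays overlapped for all 14, while they did not overlap for 0.973% of all tested probe sets. All differences below subtract the young mean from the old mean of log2 intensity, and those of the 14 ran from -0.78 to 0.45. Of the 14, 8 were above 0 and 6 below, and 50.6% of all tested probe sets were below 0. With the arrays quantile normalized 3 of the 14 were above 0, beside 42.1% of all tested, and with each array centred on its median 2 were, beside 30.8%, so the split depends on the scaling. A difference of more than 1 in size, which is a 2-fold change, occurred for 0 of the 14 and for 12.6% of all tested probe sets. The median difference was 0.022 for these 14 and -0.010 for all tested probe sets.

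**Figure D1:**
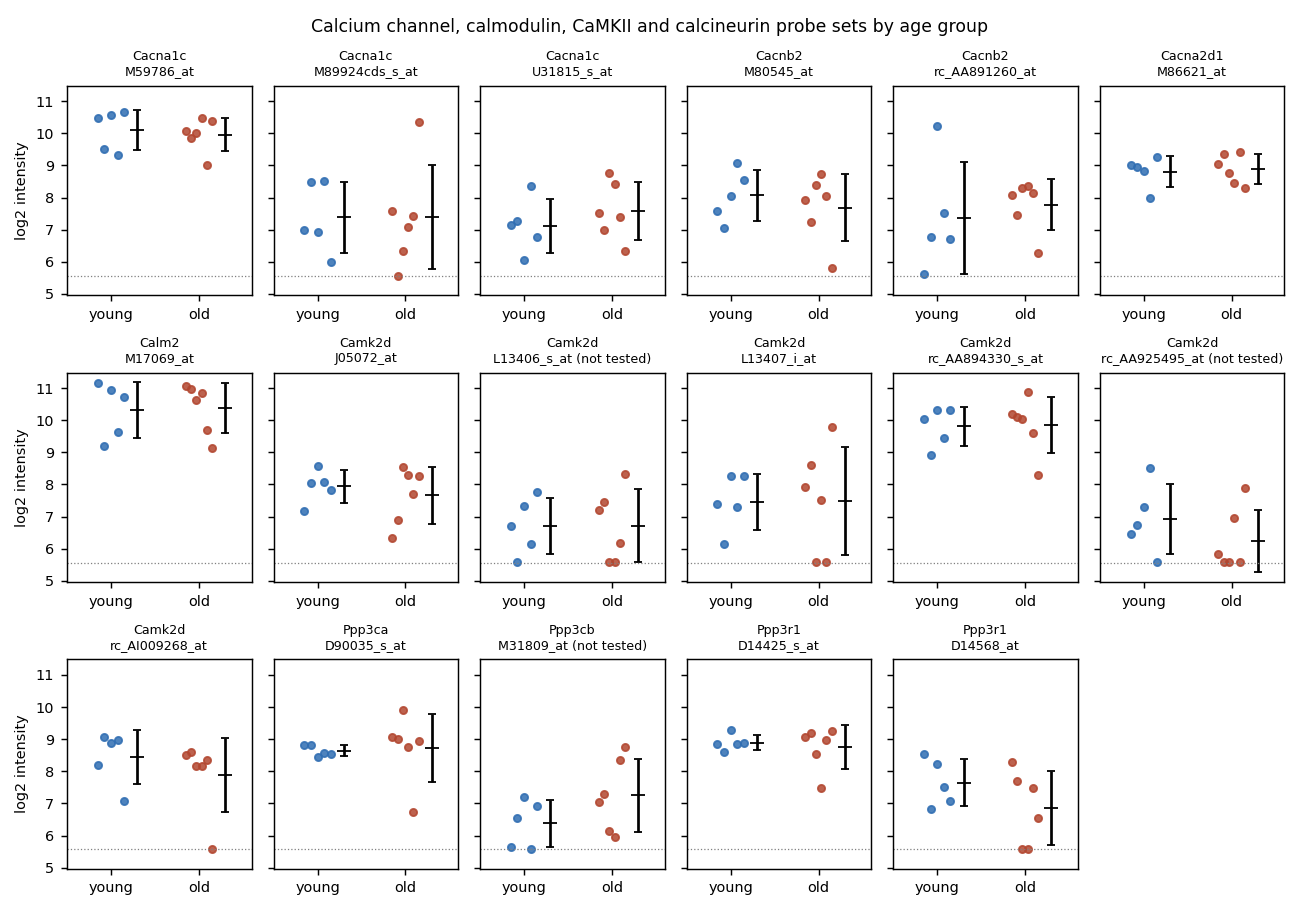
Log2 intensity (vertical axis) of the 17 probe sets in the 5 young arrays (blue) and the 6 old arrays (red). Each point is 1 array, the black mark is the group mean with its SD, and the dotted line is the floor of 5.57. In every panel the points of the old group overlap those of the young group.

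The array intensities had been scaled to a common mean per array, so each value is relative to the other transcripts of the same array, and levels of different probe sets cannot be compared. Values under a floor of 47.4, which is 5.57 on the log2 scale, were raised to it. In whole ventricle, fewer cells of a type and less RNA per cell cannot be told apart. Cardiomyocyte markers were bright in both groups, with 8 of 10 genes measured and a mean over their 13 probe sets of 13.61 to 14.36 in old and 14.24 to 14.61 in young, and 3 of the 13 were higher in old (median difference -0.25). Atrial muscle markers, with 3 of 4 genes measured, were higher in old at 8 of 8 probe sets (median difference 1.15), and their mean lay at 10.98 to 14.12 in old and 9.18 to 12.41 in young. Smooth muscle markers were higher in old at 7 of 7 tested probe sets (median 0.99), macrophage markers at 3 of 5 (median 1.08), red cell markers at 2 of 2 (median 0.91), skeletal muscle markers at 2 of 2 (median 0.93), nerve markers at 3 of 4 (median 0.65), fat cell markers at 3 of 6 (median 0.36), fibroblast markers at 5 of 12 (median -0.48) and endothelial markers at 0 of 2 (median -0.72). Their part in the values reported here was not tested. Old replicates 3 and 4 stood apart in the GAPDH control, whose log2 ratio of 3' over 5' signal was 3.39 and 4.09 there and 0.07 to 0.77 on the other arrays. Bacterial spike-in signal was bright, at 11.97 to 15.24 on the log2 scale, in old replicates 3 to 6 and young replicate 4, and dim, at 9.55 to 10.2, on the remaining arrays. The bright arrays thus hold 1 young array, so a difference among them alone sets 4 arrays against 1 and assumes that the lone array would vary like the old ones.

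Cacna1c codes for the pore of the L-type channel and was read by 3 probe sets. The brightest, M59786_at, had a log2 intensity of 10.47, 9.51, 10.56, 9.33 and 10.65 in young replicates 1 to 5. In the old arrays it ran from 9.02 to 10.47, with a median of 10.03. Young replicates 2 and 4 and old replicate 5 were the lowest, and the rest of both groups lay together. The group means were 9.96 ± 0.52 (SD, n = 6) for old and 10.11 ± 0.63 (SD, n = 5) for young. The difference of -0.14 ± 0.37 (SE, limma adjusted p = 0.945) had a 95% interval from -0.92 to 0.63, and a 2-fold change in either direction lies outside it. The difference was 0.043 without old replicate 5, and -0.44 ± 0.42 (SE) with each array centred on its median.

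The other Cacna1c probe sets are named with _s_at, the maker's mark for probes that can match more than 1 transcript. Camk2d rc_AA894330_s_at and L13406_s_at, Ppp3ca D90035_s_at and Ppp3r1 D14425_s_at, described below, carry the same mark. U31815_s_at read 7.16, 7.27, 6.07, 8.37 and 6.76 in young replicates 1 to 5 and 6.34 to 8.77 in old, with a median of 7.44. The arrays of high GAPDH ratio, old replicates 3 and 4, gave its highest old values of 8.77 and 8.43. The difference was 0.45 ± 0.60 (SE, limma adjusted p = 0.88), and -0.07 without those 2 arrays. M89924cds_s_at ran from the floor in old replicate 2 to 10.35 in old replicate 6. In young it read 7, 8.47, 6.92, 8.53 and 5.99. Its means of 7.39 ± 1.63 (SD, n = 6) for old and 7.38 ± 1.10 (SD, n = 5) for young differed by 0.013 ± 0.75 (SE, limma adjusted p = 0.997), and by -0.58 without old replicate 6. Its interval was wide, from -1.56 to 1.59.

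Cacnb2 codes for a beta subunit that carries the pore to the cell membrane and tunes its gating. Its probe set M80545_at read 7.58, 7.06, 8.05, 9.09 and 8.54 in young replicates 1 to 5. Old arrays ran from 5.8 to 8.72 with a median of 7.99, and the lowest was old replicate 6. The difference was -0.37 ± 0.59 (SE, limma adjusted p = 0.898), and 0.0025 without that array. The second probe set, rc_AA891260_at, had the widest young values of all 17, with an SD of 1.74. Young replicate 3 was at 10.24 and young replicate 1 at 5.61, beside 6.76, 7.53 and 6.72 in replicates 2, 4 and 5. The old arrays lay between 6.28 and 8.37, inside the young range. Its difference was 0.40 ± 0.71 (SE, limma adjusted p = 0.905), 1.12 without young replicate 3 and -0.036 without young replicate 1.

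Cacna2d1 codes for the extracellular alpha2-delta subunit, which raises channel density at the surface. Its single probe set, M86621_at, was among the steadiest. It read 9.02, 8.95, 8.84, 7.98 and 9.25 in young replicates 1 to 5 and 8.31 to 9.43 in old, with a median of 8.92. Young replicate 4 was the lowest of all arrays. The means of 8.90 ± 0.47 (SD, n = 6) for old and 8.81 ± 0.49 (SD, n = 5) for young gave a difference of 0.091 ± 0.41 (SE, limma adjusted p = 0.973), with a 95% interval from -0.76 to 0.95.

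Calm2 codes for calmodulin, the calcium sensor itself. Its single probe set, M17069_at, read 11.15, 9.19, 10.94, 9.63 and 10.71 in young replicates 1 to 5. In old replicates 1 to 6 it read 11.05, 10.97, 10.62, 10.84, 9.69 and 9.14. The values fell into a higher and a lower set in both age groups, with 4 arrays between 9.14 and 9.69 and 7 arrays between 10.62 and 11.15. The lower set held 2 young and 2 old arrays. The means were 10.38 ± 0.78 (SD, n = 6) for old and 10.32 ± 0.86 (SD, n = 5) for young. They differed by 0.060 ± 0.44 (SE, limma adjusted p = 0.978), with a 95% interval from -0.85 to 0.97.

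Camk2d codes for the delta form of CaMKII, the main form in heart muscle, and had 6 probe sets, of which 4 were tested. The brightest, rc_AA894330_s_at, read 10.03, 8.91, 10.32, 9.44 and 10.32 in young replicates 1 to 5. In old replicates 1 to 6 it read 10.18, 10.1, 10.03, 10.87, 9.59 and 8.28. Its 4 lowest arrays, old replicates 5 and 6 and young replicates 2 and 4, were those of Calm2. The difference was 0.035 ± 0.43 (SE, limma adjusted p = 0.988), with a 95% interval from -0.87 to 0.94.

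The remaining Camk2d probe sets were dimmer. None of those tested had the same 4 lowest arrays as rc_AA894330_s_at, though some low arrays were shared. rc_AI009268_at read 8.2, 9.08, 8.89, 8.96 and 7.07 in young replicates 1 to 5. In old it lay between 8.16 and 8.59 in 5 arrays and at the floor in old replicate 6. Its difference of -0.55 ± 0.60 (SE, limma adjusted p = 0.849) was -0.081 without old replicate 6. J05072_at was lowest in old replicates 1 and 2, at 6.32 and 6.88, and the other old arrays lay between 7.69 and 8.55. Young arrays read 7.17, 8.05, 8.56, 8.06 and 7.84, and the difference was -0.28 ± 0.54 (SE, limma adjusted p = 0.92). Among the dim arrays alone, whose old arrays are replicates 1 and 2, it was -1.31 ± 0.59 (SE, limma adjusted p = 0.645), and without old replicate 1 it was -0.010. L13407_i_at ran from the floor, in old replicates 3 and 5, to 9.78 in old replicate 6, and its young values of 6.14 to 8.26 lay within that range. Its difference was 0.030 ± 0.74 (SE, limma adjusted p = 0.994), and -0.43 without old replicate 6.

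L13406_s_at and rc_AA925495_at were under the brightness limit for testing, a mean log2 value of 7.0 over all arrays. L13406_s_at lay between the floor and 8.33 in old and between the floor and 7.75 in young, with old replicates 3 and 4 at the floor. rc_AA925495_at was at the floor in 3 old arrays and 1 young array, and its highest values were 7.88 in old and 8.52 in young. With no limit on brightness their differences were 0.023 ± 0.61 (SE, limma adjusted p = 0.997) and -0.69 ± 0.60 (SE, limma adjusted p = 0.788).

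Calcineurin has a catalytic and a regulatory subunit. Ppp3ca, the alpha catalytic subunit, was read by D90035_s_at. The young arrays were close together, at 8.81, 8.83, 8.46, 8.56 and 8.54, with an SD of 0.17. The old arrays spread on both sides of them, from 6.74 in old replicate 5 to 9.91 in old replicate 3, with a median of 8.96 and an SD of 1.05. The difference was 0.094 ± 0.50 (SE, limma adjusted p = 0.976), 0.49 without old replicate 5 and -0.14 without old replicate 3. A wider spread in old was found for 10 of the 14 tested probe sets, beside 68.2% of all tested probe sets.

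Ppp3cb, the beta catalytic subunit, was too dim to test, with a mean of 6.86 for M31809_at. It read 5.64, 6.54, 7.2, 5.57 and 6.93 in young replicates 1 to 5, where 5.57 is the floor. The old arrays ran from 5.95 to 8.75 with a median of 7.17. Old replicates 2, 5 and 6, at 7.3, 8.34 and 8.75, lay above every young array, and the other 3 old arrays lay within the young range. With no limit on brightness the difference was 0.88 ± 0.61 (SE, limma adjusted p = 0.759), the largest in size of the 17 probe sets.

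Ppp3r1, the regulatory subunit that binds calcium itself, had 2 probe sets. D14425_s_at read 8.84, 8.61, 9.29, 8.86 and 8.87 in young replicates 1 to 5 and 7.47 to 9.24 in old, with a median of 9.03. Old replicate 4 was the lowest by far, and the next old array read 8.55. The difference was -0.14 ± 0.42 (SE, limma adjusted p = 0.954), and 0.12 without old replicate 4. D14568_at had the difference largest in size of the 14 tested. It read 8.54, 6.83, 8.24, 7.52 and 7.09 in young replicates 1 to 5. In old replicates 1 to 6 it read 8.3, 7.7, 5.57, 5.57, 7.49 and 6.55, so the arrays of high GAPDH ratio, old replicates 3 and 4, lay at the floor. The means of 6.86 ± 1.15 (SD, n = 6) for old and 7.64 ± 0.73 (SD, n = 5) for young differed by -0.78 ± 0.63 (SE, limma adjusted p = 0.794). Without old replicates 3 and 4 the difference was -0.13 ± 0.59 (SE), and among the dim arrays alone it was 0.32 ± 0.63 (SE).

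**Figure D2:**
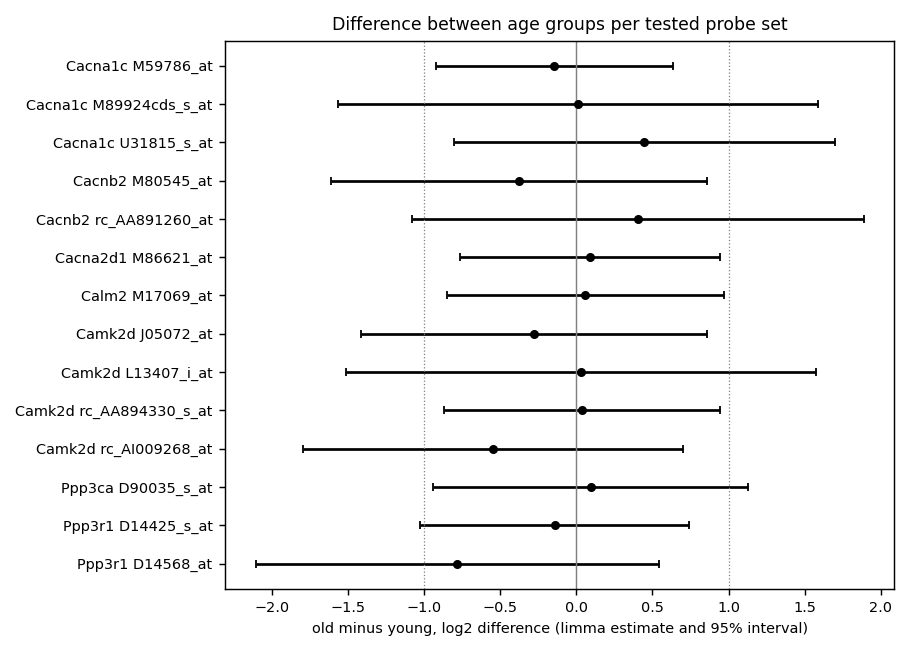
Old minus young log2 difference (horizontal axis) of the 14 tested probe sets, with the limma estimate as a point and its 95% interval as a bar; dotted lines mark a 2-fold change. All 14 intervals include 0, and 4 of them lie within the dotted lines.

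The intervals of 4 probe sets lay wholly within a 2-fold change in either direction. They were Cacna1c M59786_at, Cacna2d1 M86621_at, Calm2 M17069_at and Camk2d rc_AA894330_s_at. Such intervals were found for 635 of all 5244 tested probe sets. All these intervals are of the main fit and depend on the scaling. With each array centred on its median the 4 differences were, in that order, -0.44 ± 0.42, -0.20 ± 0.46, -0.23 ± 0.53 and -0.26 ± 0.51 (SE). With the spike-in signal as a covariate Calm2 differed by 0.70 ± 0.44 (SE). For the other 10 the interval reached past a 2-fold change on at least 1 side, so a change of that size lies within it on that side. For Ppp3r1 D14425_s_at this was by a small margin, at -1.02. The standard errors of the 14 ran from 0.37 to 0.75, with a median of 0.57, and the median over all tested probe sets was 0.56.

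No pair of probe sets for the same gene had a correlation over the 11 arrays that passed after adjustment. Among the 11 such pairs tested, the Ppp3r1 pair had the highest Pearson r, 0.67 (permutation p = 0.0148, adjusted p = 0.163 over 11 pairs) with a Spearman rho of 0.48 (permutation p = 0.138, adjusted p = 0.605). Without old replicate 4 and young replicate 3, r was 0.42. The Cacnb2 pair had an r of 0.44 (permutation p = 0.182, adjusted p = 0.613) and the highest rho, 0.50 (permutation p = 0.123, adjusted p = 0.605). The 6 Camk2d pairs ran from an r of -0.56 to 0.39 and the 3 Cacna1c pairs from -0.36 to -0.13. Some Camk2d values changed when 2 arrays were left out. These were the 2 farthest from the median of the first-named probe set, so the choice did not use the second. Without them r went from -0.10 to 0.65 for L13407_i_at with rc_AA894330_s_at (old replicates 3 and 6 left out). It went from 0.39 to -0.36 for rc_AA894330_s_at with rc_AI009268_at (old replicate 6 and young replicate 2 left out).

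Calm2 and the brightest Camk2d probe set, by contrast, shared their low arrays although they read different genes, a pattern noticed after the values were seen. Old replicates 5 and 6 and young replicates 2 and 4 were the 4 lowest arrays for both, at 9.14 to 9.69 for Calm2 and 8.28 to 9.59 for Camk2d, beside 10.03 or more in all other arrays. Since the arrays form separate sets for Calm2, no correlation is given. Of all 5244 tested probe sets, 138, or 2.63%, had the same 4 lowest arrays. Cacna1c M89924cds_s_at went the other way: old replicate 6 and young replicates 2 and 4 were its 3 highest arrays, as for 105 tested probe sets, or 2%. The brighter Cacna1c probe set, M59786_at, did not. It was lowest in old replicate 5 and young replicates 2 and 4, at 9.02 to 9.51, and read 10.38 in old replicate 6. The share of all values at or under the floor was 11.9% to 19.25% in these 4 arrays and 19.75% to 27.18% in the other 7. Its part in the pattern was not tested.

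**Figure D3:**
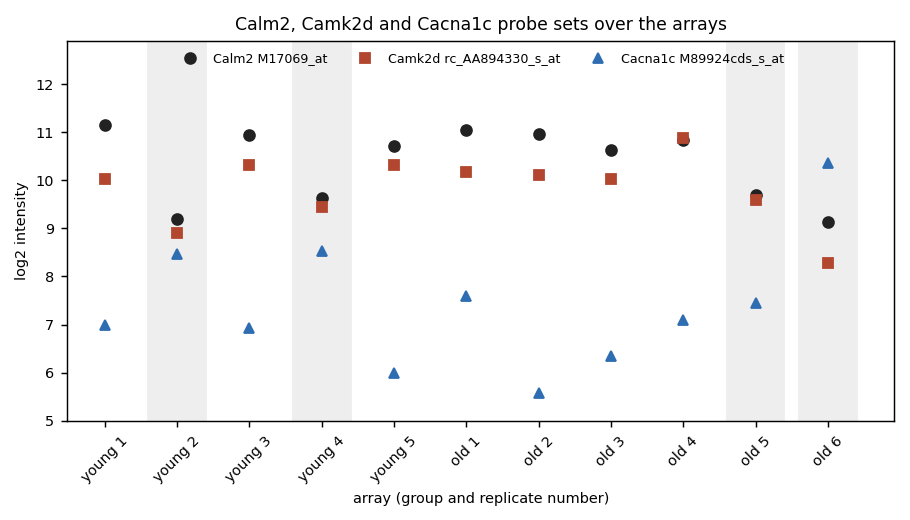
Log2 intensity (vertical axis) of Calm2 M17069_at, Camk2d rc_AA894330_s_at and Cacna1c M89924cds_s_at on each of the 11 arrays (horizontal axis, 1 symbol per array and probe set). Grey bands mark old replicates 5 and 6 and young replicates 2 and 4, where Calm2 and Camk2d are lowest.

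The transcripts most like Ppp3r1 D14568_at over the 11 arrays, after each group's mean was subtracted, were Atp5f1d, through U00926_g_at, an ATP synthase subunit of mitochondria, with a Pearson r of 0.91, Dcaf11 (rc_AA892675_at), a substrate receptor of ubiquitin ligases, with 0.88, and Arf5 (L12384_at), a small G protein of the Golgi, with 0.86. They are the top 3 of 4296 probe sets compared, so high values are given by the choice. All 3 were lowest in old replicates 3 and 4. Atp5f1d read 10.88 and 11.16 there and 11.37 or more elsewhere, Dcaf11 was at the floor in both, and Arf5 read 10.11 and 9.72, beside 10.57 or more elsewhere. For Atp5f1d the old arrays, at 12.2 or less, did not overlap the young ones, at 12.25 or more. That held for 0.973% of all tested probe sets.

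The wider calcium signalling genes were read from a list of 103 genes, of which 62 had a probe set and 45 a tested one. Of their 66 tested probe sets 0 passed an adjusted p of 0.05 in either direction (smallest limma adjusted p = 0.578). At an unadjusted p under 0.05 there was 1 higher in old, beside 3.39% of all tested probe sets, and 1 lower, beside 4.12%. In all 28 were above 0 and 38 below, with a median difference of -0.11. With each array centred on its median, 16 were above 0 and 50 below, as the median of all tested probe sets then lay at -0.30. Other subunits of voltage-gated calcium channels were above 0 at 8 of 10 tested probe sets (median 0.30), or at 5 of 10 with that centring. Other calmodulin-dependent kinases, with the CaMKII inhibitors Camk2n1 (0.054) and Camk2n2 (-0.51) counted among them, were below 0 at 9 of 12 (median -0.11). Calcineurin regulators and targets were below 0 at 8 of 13 (median -0.31). No calcineurin subunit was among these, as Ppp3r2, the only one of this list with a probe set, was too dim to test. Calcium transporters and channels of the cell surface were below 0 at 6 of 10 (median -0.11), and other calmodulin-regulated enzymes, such as phosphodiesterases and nitric oxide synthases, at 6 of 8 (median -0.18). The enzymes were below 0 at 8 of 8 with quantile normalization or median centring. Calmodulin-binding proteins, with the calcium-binding proteins S100a1 and Sri counted among them, were above 0 at 5 of 9 (median 0.10). That was 3 of 9 with quantile normalization and 2 of 9 with median centring. Every value below 0 in the first count was of S100a1 or Sri. Gap43 (0.25), Marcks (0.37 and 0.10), Nrgn (1.46) and 1 S100a1 probe set (0.17) were above 0. Of the remaining groups, inositol trisphosphate receptors were above 0 at 1 of 3 and the small G proteins that bind channel beta subunits at 0 of 1.

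Cabin1, an inhibitor of calcineurin, had the highest difference of this list. Old arrays averaged 8.39 ± 1.18 (SD, n = 6) for AF061947_g_at and young arrays 6.88 ± 1.01 (SD, n = 5), which gave 1.51 ± 0.65 (SE, limma adjusted p = 0.578). The second probe set of the same sequence, AF061947_at, differed by 0.062 ± 0.33. S100a1, a calcium-binding protein of heart muscle, averaged 10.48 ± 0.79 (SD, n = 6) in the old arrays through U26356mRNA_s_at and 11.30 ± 0.56 (SD, n = 5) in the young ones, which gave -0.82 ± 0.39 (SE, limma adjusted p = 0.66), and -0.52 without old replicate 6. Its other probe sets differed by -0.67 ± 0.56, -0.34 ± 0.33 and 0.17 ± 0.62. Camk1, another calmodulin-dependent kinase, had the lowest difference, -1.32 ± 0.66 (SE, limma adjusted p = 0.661). Its probe set L24907_at lay at the floor in 3 old arrays. The difference was -1.75 with no floor and -0.94 with a floor at the 30th percentile.

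Nrgn, which holds calmodulin at rest, differed by 1.46 ± 0.72 (SE), and Crem, a transcription factor phosphorylated by calcium-activated kinases, by 1.14 ± 0.61 through U04835_at and -0.34 ± 0.42 through S66024_g_at. Fkbp1a, the immunophilin through which the drug FK506 inhibits calcineurin, differed by -1.15 ± 0.57 (SE) through rc_AI228738_s_at and by 0.0079 to -0.74 through the others. Gata4, a cardiac transcription factor that NFAT partners with, differed by -1.04 ± 0.52 (SE) through rc_AI234969_s_at and by 0.36 ± 0.46 through L22761_at. Among the dim arrays alone, values were nearer 0 for S100a1 (-0.28), Gata4 (-0.0046) and Fkbp1a (-0.64). The same held for Crem (0.30), Nrgn (0.86) and Cabin1 (0.77), while Camk1 was further from 0, at -1.50. Without the arrays of high GAPDH ratio the values were -0.56 for Gata4, -0.64 for Fkbp1a, 0.69 for Crem and 0.74 for Nrgn. Cabin1 was at 1.36 there, and S100a1 (-0.85) and Camk1 (-1.47) were further from 0. None of these genes passed, and the tested probe sets of Cabin1, S100a1, Crem, Fkbp1a and Gata4 gave unlike values.

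**Figure D4:**
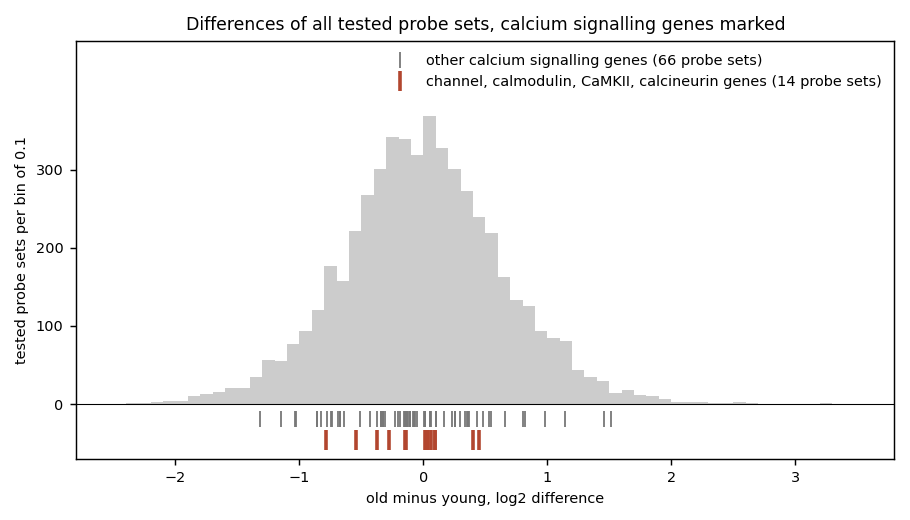
Number of tested probe sets (vertical axis) by old minus young log2 difference (horizontal axis, bins of 0.1) for all 5244 tested probe sets. Marks under the axis are the 66 probe sets of other calcium signalling genes (grey) and the 14 of the channel, calmodulin, CaMKII and calcineurin genes (red), which lie between -0.78 and 0.45.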

How the data were processed

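The deposited table gives 1 linear intensity per probe set and array, scaled by the authors to a common level: the mean trimmed by 2% at both ends was 500.47 to 500.96 on all 11 arrays. How the probes were summarised and corrected for background is not given in the sources used. Any intensity under 47.4, the 20th percentile of the whole table, was set to that floor before log2 was taken. The 59 control probe sets and the dimmest 40% of the others (mean log2 under 7.0) were not tested. The comparison of the age groups used limma 3.58.1 under R 4.3.3 (lmFit, then eBayes with an intensity trend), and p-values were adjusted by Benjamini-Hochberg over the 5244 probe sets tested. Permutation tests of correlations drew 100000 resamples and were two-sided. The number of arrays limits the precision.

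Symbols came from GEO's platform annotation (1 symbol for 7006 probe sets, several for 308, none for 1426, controls aside). The genes and lists were chosen with earlier results of these data known. Every probe set of the genes was named. Of the other calcium genes, those with an unadjusted p under 0.05 and the 3 largest differences each way were named, and for likeness the 3 probe sets of highest r with the probe set of smallest p. The scripts were tested on simulated data. Alternatives were other floors, filters and normalizations, no trend, array weights, blocks, the spike-in classes, and leaving out arrays.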

Additional observations from a re-analysis of the deposited data

Results flagged for a closer look

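An array far from the others of its group was found in 2 of 34 group values examined (17 probe sets in both groups), while chance gives about 1 in 20. Camk2d rc_AI009268_at lay at the floor of 5.57 in old replicate 6, and the nearest old array read 8.16. Ppp3ca D90035_s_at read 6.74 in old replicate 5, and the nearest old array read 8.76.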

How the results depend on the processing

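Under 26 alternatives, 0 of the calcium channel, calmodulin, CaMKII and calcineurin probe sets and 0 of the other calcium signalling probe sets passed an adjusted p of 0.05 in limma. A threshold of 0.1 was applied to the main fit only, and 0 of either passed it. Of 358 values of the 14 probe sets, 288 kept their direction, 70 turned, and the smallest adjusted p was 0.568 (smallest unadjusted p = 0.051). Median centring shifted each of the 14 by -0.29 alike, the replicate block gave the estimates without old replicate 6, which has no partner, and the bright arrays hold 1 young array against 4 old ones. Without those 3 alternatives, 56 of 316 values turned, and none of them was of Camk2d J05072_at. Over all probe sets, 5 passed among the bright arrays alone, from an arm of 1 array, 1 among the dim arrays alone, and 0 to 2 when 1 array was left out, with 2 without old replicate 5. The causes of the turns were not tested.

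Quantile normalization moved the median of all tested probe sets to -0.12 and turned Ppp3ca (-0.079), Camk2d L13407_i_at (-0.11) and rc_AA894330_s_at (-0.027), Cacna2d1 (-0.036) and Cacna1c M89924cds_s_at (-0.13). Median centring moved it to -0.30 and so took below 0 Ppp3ca (-0.20), Camk2d L13407_i_at (-0.26) and rc_AA894330_s_at (-0.26), Calm2 (-0.23), Cacna2d1 (-0.20) and Cacna1c M89924cds_s_at (-0.28). A floor at the 10th percentile turned L13407_i_at (-0.15) and M89924cds_s_at (-0.051), and no floor turned the same ones (-0.16 and -0.051). Array weights turned Ppp3r1 D14425_s_at (0.012), M89924cds_s_at (-0.15) and Camk2d rc_AI009268_at (0.10). The spike-in covariate gave 0.0038, -0.97 and 0.058 for those 3, and the spike-in class as a block gave 0.037 for D14425_s_at, 0.019 for Cacna1c M59786_at and -0.60 for M89924cds_s_at. The dim arrays alone turned D14425_s_at (0.24), Ppp3r1 D14568_at (0.32), M89924cds_s_at (-0.51) and rc_AI009268_at (0.24). The bright arrays alone, with 1 young array, gave the other sign for Camk2d J05072_at (0.13) and L13407_i_at (-0.18), Cacna1c M59786_at (0.63), M89924cds_s_at (-0.73) and U31815_s_at (-0.64), and Fkbp1a rc_AI228738_s_at (0.082). Without the arrays of high GAPDH ratio the values turned for D14425_s_at (0.23), Ppp3ca (-0.21), Calm2 (-0.11), rc_AA894330_s_at (-0.27) and U31815_s_at (-0.069).

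With 1 array left out at a time, values ran from -0.24 to 0.12 for D14425_s_at, -0.14 to 0.49 for Ppp3ca, -0.47 to -0.010 for J05072_at, -0.43 to 0.42 for L13407_i_at, -0.22 to 0.31 for Calm2, -0.34 to 0.043 for M59786_at, -0.63 to 0.0025 for Cacnb2 M80545_at, -0.036 to 1.12 for Cacnb2 rc_AA891260_at, -0.12 to 0.21 for Cacna2d1, -0.58 to 0.38 for M89924cds_s_at and -0.19 to 0.35 for rc_AA894330_s_at. Like J05072_at, Ppp3r1 D14568_at (-1.07 to -0.52), Camk2d rc_AI009268_at (-0.89 to -0.081) and Cacna1c U31815_s_at (0.18 to 0.76) kept their direction there. The groups share the numbers 1 to 5, but deviations of same-numbered arrays correlated at only -0.25 to 0.25, so the numbers were not taken as pairs. As without old replicate 6, the replicate block turned L13407_i_at (-0.43), M80545_at (0.0025) and M89924cds_s_at (-0.58), and 0 probe sets passed under it.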
